A study of Mus musculus with 12 samples.

Results

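The B7 ligands and the receptors CD28 and ICOS were followed in CD8 T cells of cTKO mice. In these mice the linker histone H1 genes Hist1h1c, Hist1h1d and Hist1h1e are the targeted genes. The set held 8 genes of the 24421 in the authors' deposited table: the receptors Cd28 and Icos, and the ligands Cd80, Cd86, Icosl, Cd274, Pdcd1lg2 and Cd276. They were found by gene symbol, and 7 of the 8 had reads and an adjusted p. The set was selected on fold changes of this same contrast, which were known when the genes were listed, so their values and adjusted p describe these libraries and support nothing further. Cd86 fell in cTKO cells, to 54 normalized reads against 838 in WT cells, while no other gene of the set passed the test.

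A T cell needs a second signal beside the one from its antigen receptor. CD80 and CD86 on antigen-presenting cells give it by binding CD28, which promotes cytokine production and survival, and they bind CTLA-4, which restrains the T cell, more tightly. ICOS is a CD28 relative that activated T cells put on their surface and that binds ICOSL. PD-L1 and PD-L2, the products of Cd274 and Pdcd1lg2, are inhibitory members of the B7 family that bind PD-1. T cells themselves can carry several of these ligands, among them CD80, CD86 and PD-L1.

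The series asks how H1 linker histones, which bind the nucleosome and compact chromatin, shape the balance of repressive and active chromatin. Its labels describe 12 RNA samples from C57BL/6 mice in 6 groups of 2, namely splenic B cells and the CD4 and CD8 classes of T cells, each of cTKO and of WT animals, each from a sort of 500000 cells. The comparison used here is of CD8 T cells from 2 cTKO animals (1 female, 1 male) and 2 WT animals (1 female, 1 male), sorted from spleen, and the labels name no treatment. The labels give neither the age of the animals nor the Cre driver behind the cTKO deletion. The table does not name the numerator of its fold changes. A negative value was taken as lower in cTKO, since the H1 genes Hist1h1c, Hist1h1d and Hist1h1e carry one, and an inverted reading would turn every direction given here. Their reads, 0 in both cTKO libraries, therefore do not check the labels.

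Reads per library are not columns of the table, and were worked back from its means, fold changes and standard errors. This gave 2 libraries for each genotype, called the larger and the smaller, with size factors of 1.21 and 0.805 for cTKO and 1.21 and 0.866 for WT. Dividing reads by the size factor gives normalized reads. The reads of the Y-linked genes Kdm5d, Uty and Eif2s3y were sought in 1 library per genotype, as each genotype had 1 male. Of these layouts 1 gave a solution. There the smaller cTKO library held all cTKO reads (488, 689 and 1158) and the smaller WT library all WT reads (479, 491 and 1271). Layouts with many such reads in both libraries of a genotype were not tried. The smaller libraries were therefore taken as those of the males and the larger as those of the females. Library size and sex cannot be told apart. The larger cTKO library stood apart: it alone held the read of 1165 genes seen as 1 read in all, against 156 in the smaller cTKO library and 102 and 97 in the WT libraries. The cells carried CD8 T cell genes at high levels (mean normalized count over the 4 libraries of 20303 for Cd8a, 31813 for Cd8b1 and 12041 for Cd3e in the authors' deposited table). Cd4 had 1 and 0 reads in cTKO and 1 and 4 in WT libraries.

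Among the 7 genes of the set with an adjusted p, 1 passed an adjusted p under 0.05, lower in cTKO, and 0 were higher. Of all 12972 genes tested in the authors' deposited table, 13.4% passed, 9.77% higher and 3.61% lower. The median log2 fold change of the 7 genes was 0.23 in the authors' deposited table, against 0.04 over all tested genes. Genes with a mean of at least 100 had a median of -0.10 in the authors' deposited table, to which the fold changes of the set may be compared.

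**Figure D1:**
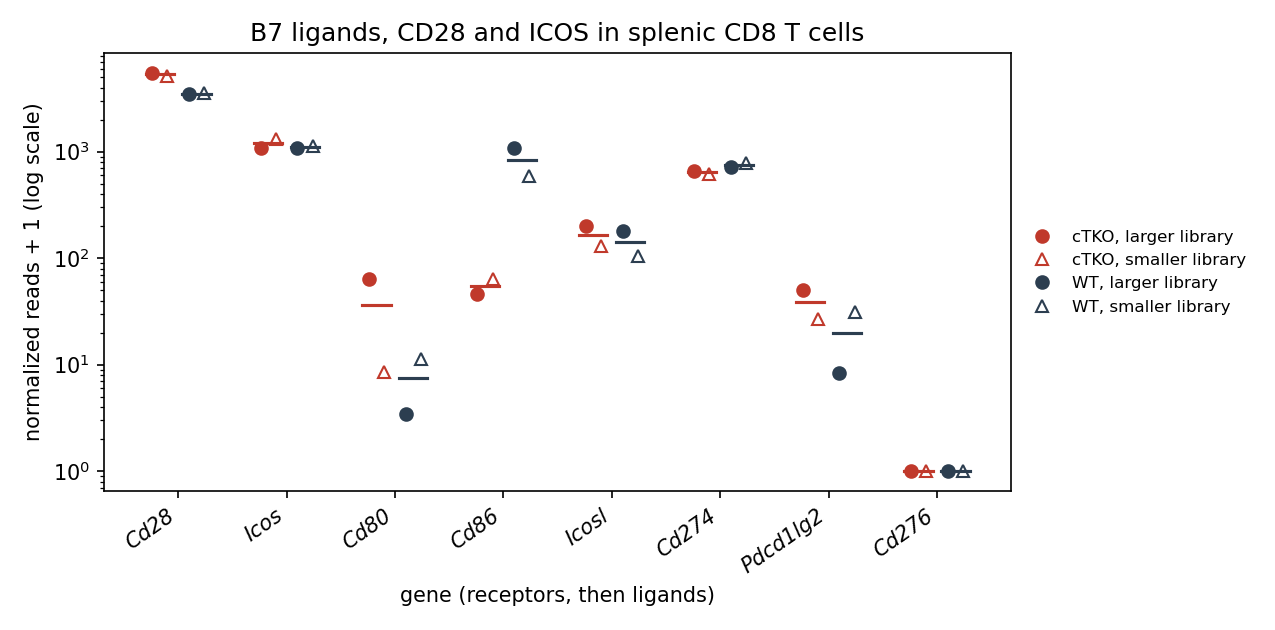
Normalized reads plus 1 (log axis) of the 8 genes in the larger (filled circles) and smaller (open triangles) library of each genotype, cTKO left of WT for each gene, with bars at the mean of the 2 libraries. Cd86 is far lower in both cTKO libraries than in both WT libraries, Cd28 lies somewhat higher in cTKO, and Cd276 has no reads.

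Cd86 encodes a principal ligand of CD28 and CTLA-4. The gene (Entrez 12524) lies on the minus strand of chromosome 16, from 36603869 to 36666081 (GRCm38). The larger and smaller cTKO libraries held 55 and 50 of its reads, against 1321 and 510 in the larger and smaller WT libraries. After division by the size factors these were 45.6 and 62.1 normalized reads in cTKO, against 1088 and 589 in WT. Both cTKO libraries were low and close to each other. Both WT libraries were high, the larger 1.85 times the smaller, and the genotypes did not overlap. The means were 53.8 ± 11.7 normalized reads in cTKO and 838 ± 353 in WT (SD, n = 2 each).

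Cd86 fell 15.7-fold in the authors' deposited table (log2 change -3.97 ± 0.42 SE at an adjusted p of 1.16e-18, by DESeq2). The 95% interval from that standard error runs from 0.0360 to 0.113 of the WT level. Cd86 ranked 39 by p among all tested genes of the authors' deposited table, and 2 among the lower ones. A limma fit to the recovered reads gave a log2 fold change of -3.90 (adjusted p 0.00106). In limma the call of Cd86 was lost without the larger (-3.68) or the smaller cTKO library (-4.12). Leaving out the larger or the smaller WT library gave -3.46 and -4.34. Most calls over all tested genes were lost too when a cTKO library was left out. Such a loss is thus not particular to Cd86 or to the genes named below. In bulk RNA, fewer cells that carry a transcript and less RNA per cell cannot be told apart.

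**Figure D2:**
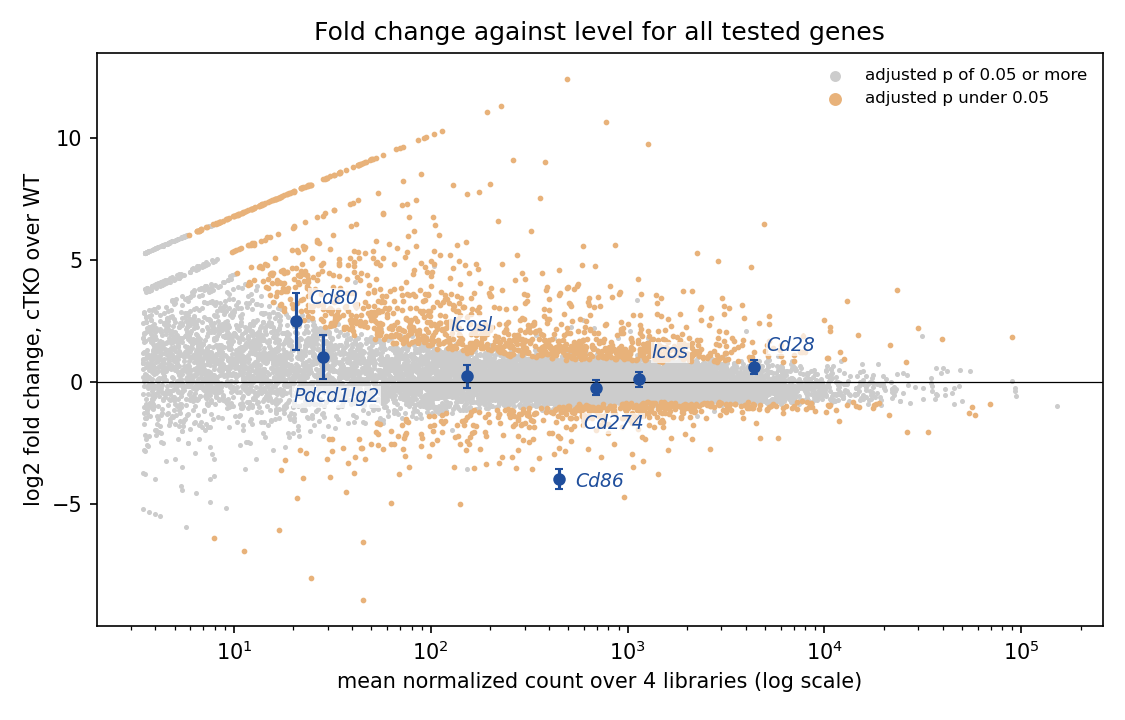
Log2 fold change, cTKO over WT, against the mean normalized count over the 4 libraries (log axis) for the 12972 tested genes of the authors' deposited table, orange where the adjusted p is under 0.05. Blue points with bars (SE) are the 7 tested genes of the set: Cd86 at -3.97 lies among the lowest genes of its level, and the other 6 lie within the grey cloud.

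The receptor CD28 is the costimulatory receptor of naive T cells. Cd28 (Entrez 12487, chromosome 1, 60716800 to 60773359, plus strand) had 6628 and 4124 reads in the cTKO libraries, against 4187 and 3060 in the WT libraries, larger first. Normalized, these were 5489 and 5123 in cTKO and 3448 and 3533 in WT. Both cTKO libraries were above both WT libraries, and the libraries within a genotype lay close together (5306 ± 259 in cTKO and 3491 ± 60.6 in WT, SD, n = 2 each). For a gene with a mean this high, the search took only solutions with both libraries of a genotype within a set fold. Closeness within a genotype is therefore partly set by that search, which was not tested on simulated reads. The difference did not pass in the authors' deposited table (log2 change 0.60 ± 0.29 SE at an adjusted p of 0.150), where its 95% interval spans 1.03-fold to 2.24-fold. Limma gave Cd28 0.60 as well (adjusted p 0.0958), and 0.55 to 0.65 when any library was left out.

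Icos, whose product helps T cells that have met antigen, lies further along the same chromosome (Entrez 54167, chromosome 1, 60977927 to 61000320, plus strand). Its normalized reads were 1077 and 1316 in cTKO, against 1083 and 1124 in WT, from 1300 and 1059 reads and from 1315 and 973 reads. The genotypes overlapped, with the smaller cTKO library highest. The log2 fold change in the authors' deposited table was 0.12 (SE 0.31, adjusted p 0.850), with a 95% interval from 0.711-fold to 1.65-fold. Its sign turned, to -0.03, without the smaller cTKO library. Ctla4, the gene of the inhibitory receptor that shares CD80 and CD86 with CD28, lies between Cd28 and Icos. It had 147 and 71 reads in cTKO and 132 and 87 in WT (log2 change 0.01 ± 0.49 SE at an adjusted p of 0.994, authors' deposited table).

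Cd80 encodes the other B7 ligand of CD28 and CTLA-4, and lies on the same chromosome as Cd86 (Entrez 12519, chromosome 16, 38455561 to 38496335, plus strand). It had few reads: 76 and 6 in cTKO, against 3 and 9 in WT. The larger cTKO library alone was high, with 62.9 normalized reads against 7.45 in the smaller cTKO library, 2.47 in the larger WT and 10.4 in the smaller WT library. The genotypes overlapped, since the smaller cTKO library lay below the smaller WT library. Cd80 did not pass in the authors' deposited table (log2 change 2.50 ± 1.17 SE at an adjusted p of 0.145). Without the larger cTKO library the limma value for Cd80 was 0.48 (adjusted p 0.814), and without the smaller cTKO library it was 3.48. With 3 and 9 reads in WT, a fall of the size seen for Cd86 could not have been detected for Cd80.

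Icosl encodes the ligand of ICOS (Entrez 50723, chromosome 10, 78069302 to 78083913, plus strand). Its reads were 242 and 104 in cTKO, against 217 and 89 in WT, or 200 and 129 normalized reads in cTKO and 179 and 103 in WT. In each genotype the larger library was the higher one, and the genotypes overlapped. The authors' deposited table gave Icosl a log2 change of 0.23 ± 0.48 SE at an adjusted p of 0.807, with an interval from 0.612-fold to 2.24-fold. Its sign turned without the larger cTKO library (-0.07) and without the smaller WT library (-0.15).

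Cd274 encodes PD-L1 (Entrez 60533, chromosome 19, 29367455 to 29388095, plus strand). Its reads were 797 and 494 in cTKO, against 875 and 670 in WT. Normalized, they were 660 and 614 in cTKO, both below the 721 and 774 in WT. The gap was small beside the error of the test: in the authors' deposited table the log2 fold change of Cd274 was -0.23 (SE 0.32, adjusted p 0.693), with an interval from 0.553-fold to 1.31-fold. Exons of an annotated gene on the opposite strand overlap Cd274, and the sources used here do not say whether counting used strand, so reads of both transcripts cannot be told apart.

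Pdcd1lg2 encodes PD-L2 and lies 22.8 kb beyond Cd274 (Entrez 58205, chromosome 19, 29410919 to 29471161, plus strand). It had 60 and 21 reads in cTKO, against 9 and 26 in WT. With 49.7 and 26.1 normalized reads in cTKO and 7.41 and 30.0 in WT, the genotypes overlapped, the larger cTKO library being highest and the larger WT library lowest. Pdcd1lg2 did not pass in the authors' deposited table (log2 change 1.04 ± 0.90 SE at an adjusted p of 0.491), and the limma value was between 0.26, without the larger WT library, and 2.21, without the smaller. Cd276, which encodes B7-H3 (Entrez 102657, chromosome 9, 58524298 to 58555437, minus strand), had 0 reads in all 4 libraries, and a count of 0 allows up to 3 reads in each. This limit covers counting error only, and the intervals rest only on the SE of the authors' fit, with 2 libraries per genotype.

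To compare levels between genes, normalized reads were divided by the length of the gene's exons in kilobases (kb). In cTKO cells Cd28 had the highest level per kb, with 1221 normalized reads per kb on average, followed by Icos with 349, Cd274 with 176 and Icosl with 58.6. Each of these 4 lay apart from the next in both libraries. Cd86, Pdcd1lg2 and Cd80 followed with 21.2, 19.3 and 9.51 normalized reads per kb in cTKO, and each overlapped its neighbour in this order. In WT cells Cd28 again came first, with 803 normalized reads per kb. Cd86 with 330 and Icos with 322 came next in WT and overlapped each other. Cd274 had 206 normalized reads per kb, Icosl 50.0, Pdcd1lg2 9.54 and Cd80 1.74 in WT. Of the B7 ligands, Cd274 and Icosl thus both lay above Cd86 per kb in cTKO cells, while Cd86 had the highest level of them in WT cells.

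The other genes of the pathway were taken from 4 lists. They gave 5 higher and 3 lower calls among 61 tested genes in the authors' deposited table, beside the 9.77% higher and 3.61% lower of all tested genes. The lists were drawn up with earlier results of these data known.

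Among 6 tested relatives in the B7 and CD28 families, 0 were higher and 1 was lower, and the median log2 change in the authors' deposited table was -0.23. Rgmb, which encodes a partner that binds PD-L2, fell to 236 and 122 reads in cTKO, against 513 and 407 in WT (log2 change -1.36 ± 0.37 SE at an adjusted p of 0.00385, authors' deposited table). Pdcd1, the gene of the PD-1 receptor, had 105 and 39 reads in cTKO and 175 and 119 in WT and did not pass (log2 change -1.05 at an adjusted p of 0.166, authors' deposited table). Vsir, which encodes the inhibitory ligand VISTA and had the highest mean of the list, did not pass either (log2 change -0.46, authors' deposited table). Vtcn1, the gene of B7-H4, had 0 reads in all 4 libraries.

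Of 27 tested genes that signal below CD28 and ICOS, 3 were higher and 1 lower, and the median log2 fold change was 0.29 in the authors' deposited table. Rptor, which encodes the mTOR complex subunit raptor, rose to 3834 and 1278 reads in cTKO, against 778 and 683 in WT (log2 change 1.74 ± 0.37 SE at an adjusted p of 9.89e-05, authors' deposited table). Pdpk1, the kinase that activates AKT, had 2513 and 717 reads in cTKO and 660 and 580 in WT. Malt1, a paracaspase that links the antigen receptor to NF-kappaB, had 4591 and 1561 reads in cTKO and 1501 and 1314 in WT. Their log2 fold changes of 1.29 and 1.06 passed in the authors' deposited table (adjusted p 0.0154 and 0.0331). In these 3 genes the larger cTKO library was the highest, and without it the limma values were 1.16 for Rptor, 0.56 for Pdpk1 and 0.50 for Malt1, none of which passed. Ptpn6, the gene of the phosphatase SHP-1, fell to 7414 and 6875 reads in cTKO, against 17765 and 11558 in WT (log2 change -0.93 at an adjusted p of 0.0223, authors' deposited table). Lck, the kinase that starts antigen receptor signalling, did not pass, with a log2 change of -0.54 (authors' deposited table).

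Genes that costimulation through CD28 or ICOS can induce gave 2 higher and 0 lower calls among 14 tested, and the median log2 change in the authors' deposited table was 0.12. Ifng, the interferon gamma gene, rose to 245 and 168 reads in cTKO, against 34 and 30 in WT (log2 change 2.72 ± 0.49 SE at an adjusted p of 9.04e-07, authors' deposited table). Bcl2l1, which encodes the survival protein BCL-XL, rose to 1602 and 1012 reads in cTKO, against 859 and 464 in WT (log2 change 1.05 ± 0.32 SE at an adjusted p of 0.0122, authors' deposited table). Il2 was near the floor, with 15 and 0 reads in cTKO and 11 and 6 in WT, and Il21 had 0 in all 4 libraries. Nfatc1, a transcription factor downstream of the calcium signal and the gene of this list with the highest mean, did not pass (log2 fold change 0.18 in the authors' deposited table).

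Among 14 tested genes that set the levels of B7 ligands, CD28 or ICOS, 0 were higher and 1 was lower, and the median log2 change in the authors' deposited table was 0.09. Ifngr2, a chain of the interferon gamma receptor, fell to 74 and 145 reads in cTKO, against 1104 and 680 in WT (log2 change -2.82 ± 0.46 SE at an adjusted p of 3.78e-08, authors' deposited table). Ifngr1, the other chain, stood at a log2 change of -0.07 (adjusted p 0.911, authors' deposited table). Irf1, which can activate Cd274, did not pass (log2 change 0.38 at an adjusted p of 0.476, authors' deposited table), nor did Jak1, a kinase of interferon receptors with the highest mean of the list (log2 change 0.45).

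Of the calls in these lists, that of Ifng was lost in limma without either cTKO library (2.72 and 2.68, adjusted p 0.152 and 0.0796), and that of Ifngr2 without the larger cTKO library (-2.23, adjusted p 0.0668). Pdpk1 and Malt1 did not pass in limma with all 4 libraries either (1.17 and 0.99, adjusted p 0.101 for both), and leaving out a library gave 0.56 to 1.79 and 0.50 to 1.47. Rgmb and Bcl2l1 passed with all 4 libraries, but with any of them left out did not, at -1.55 to -1.19 and 0.87 to 1.27. When libraries were left out, Ptpn6 kept its call only without the smaller WT library (range -1.19 to -0.71), and Rptor only without a WT library (range 1.16 to 2.16).

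**Figure D3:**
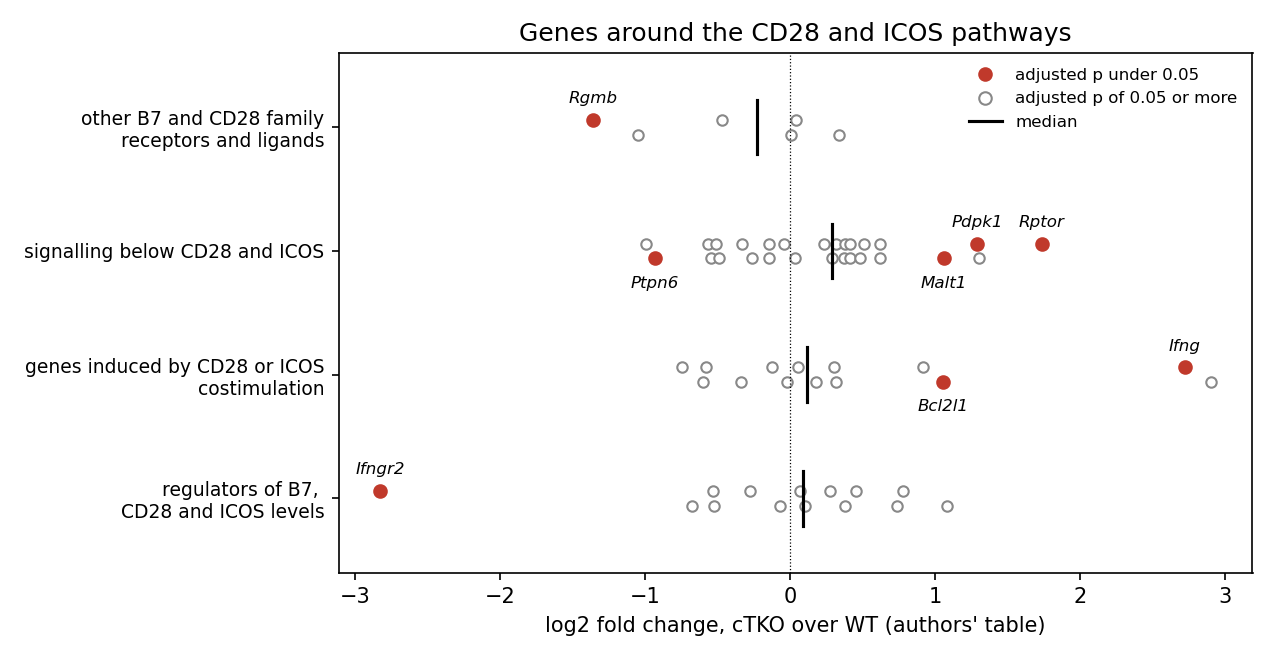
Log2 fold change, cTKO over WT, of the 61 tested genes in 4 lists around the CD28 and ICOS pathways, red where the adjusted p of the authors' deposited table is under 0.05. Black ticks mark the list medians, which lie between -0.23 and 0.29, while Ifng at 2.72 and Ifngr2 at -2.82 lie farthest out among the genes that passed.

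Cd86 is best known on B cells, dendritic cells and macrophages, and markers of these cells were therefore set beside it. Of all tested genes in the authors' deposited table, 9.77% were higher and 3.61% lower. Of 5 tested B cell markers, 0 were higher and 1 was lower there. The lower one was Cd79b, a chain of the B cell receptor complex, with 176 and 145 reads in cTKO, against 1612 and 762 in WT (log2 change -2.76 ± 0.36 SE at an adjusted p of 2.54e-12, authors' deposited table). Apart from Cd79a, the other B cell markers had few reads or overlapped between the genotypes. Ms4a1, the gene of the B cell antigen CD20, had 7 and 3 reads in cTKO and 3 and 5 in WT. Pax5, the B cell lineage factor gene, had 0 and 1 in cTKO and 0 and 0 in WT. Cd79a, the partner chain of Cd79b, had 44 and 25 reads in cTKO and 47 and 67 in WT. Its normalized reads were 36.4 and 31.1 in cTKO, both below the 38.7 and 77.4 in WT. The difference of Cd79a did not pass (log2 change -0.77 at an adjusted p of 0.501, authors' deposited table). Cd22, an inhibitory B cell receptor gene, had 903 and 38 reads in cTKO and 208 and 131 in WT and did not pass (adjusted p 0.633, authors' deposited table). Of the 10 B cell markers, 6 had at most 10 reads in every library. The summed level of the 10 was 977 and 277 normalized reads in cTKO, against 1549 and 1134 in WT, and Cd22 gave 748 of the 977 in the larger cTKO library.

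The shares over all tested genes were again 9.77% higher and 3.61% lower. Of 8 tested dendritic cell markers, 1 was higher and 4 were lower in the authors' deposited table. The antigen presentation genes H2-Ab1, H2-Aa and Cd74 and the chemokine receptor Ccr7, which naive T cells also carry, were the lower ones. H2-Ab1, a chain of MHC class II, had 72 and 25 reads in cTKO, against 333 and 298 in WT (log2 change -2.75 ± 0.47 SE at an adjusted p of 2.15e-07, authors' deposited table). H2-Aa and Cd74 fell by 2.63 and 1.57 in log2 units (adjusted p 0.000275 and 0.00237, authors' deposited table). In limma Cd79b, H2-Ab1, H2-Aa and Cd74 passed with all 4 libraries but not without the larger cTKO library (-2.58, -3.29, -3.27 and -2.06) or without the smaller (-2.89, -2.36, -2.11 and -1.19). H2-Aa also did not pass without the smaller WT library (-2.26), nor Cd74 without either WT library (-1.84 and -1.42). Itgax, which encodes CD11c, rose to 2429 and 509 reads in cTKO, against 56 and 44 in WT (log2 change 4.77 at an adjusted p of 2.28e-20, authors' deposited table). Without the larger cTKO library the limma value for Itgax was 3.69 and did not pass (adjusted p 0.0757). The dendritic cell genes Flt3, Clec9a, Siglech and Batf3 had at most 10 reads in every library and Clec10a had 0, while Xcr1 had 74 and 43 reads in cTKO and 84 and 48 in WT. Zbtb46, a dendritic cell lineage factor gene, had 39 and 5 reads in cTKO and 24 and 8 in WT. The summed level of the 11 markers with recovered reads was 2411 and 857 normalized reads in cTKO, against 939 and 1225 in WT, so the genotypes overlapped. Itgax alone gave 2012 and 632 of this sum in cTKO, against 46.1 and 50.8 in WT.

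Macrophage and monocyte markers gave 2 higher calls, of Itgam and Ly6c2, and 0 lower among 6 tested in the authors' deposited table. Beside these counts and those of the next lists stand 9.77% higher and 3.61% lower of all tested genes. Itgam, the gene of CD11b, had 434 and 138 reads in cTKO, against 34 and 30 in WT, and did not pass in limma without the larger or the smaller cTKO library (2.44 and 3.51). Adgre1, which encodes F4/80, had 4 and 0 reads in cTKO and 2 and 0 in WT. Csf1r, a macrophage growth factor receptor gene, had 25 and 6 in cTKO and 2 and 3 in WT, and Lyz2, the lysozyme gene, 43 and 6 in cTKO and 20 and 11 in WT. Of these markers, 6 of the 11 with recovered reads had at most 10 in every library. The summed level of the 11 was 610 and 298 normalized reads in cTKO, against 124 and 83.1 in WT, and Itgam alone gave 359 and 171 of it in cTKO. Cd68 gave 173 and 94.4 of it in cTKO, against 62.6 and 26.6 in WT. It did not pass (log2 change 1.58 at an adjusted p of 0.0564, authors' deposited table). The part of Cd79b, Cd74 and MHC class II genes, and of the other markers of these cells in the difference of Cd86 was not tested. Natural killer cell markers, which some CD8 T cells also carry, were higher for 6 of 8 tested and lower for 0 in the authors' deposited table. Klrb1c, the gene of the NK1.1 antigen, had the smallest p of them, with 1606 and 881 reads in cTKO, against 180 and 119 in WT. Klra8, a Ly49 receptor gene, rose to 206 and 75 reads in cTKO, against 3 and 3 in WT, and Tyrobp, a signalling adaptor gene, to 440 and 201, against 28 and 23 in WT. Gzma, a granule protease gene, rose by 3.45 in log2 units (adjusted p 5.09e-14, authors' deposited table). Ncr1, which encodes NKp46, had 22 and 1 reads in cTKO and 2 and 4 in WT. In limma Klrb1c and Klra8 passed with each of the 4 libraries left out in turn, while Tyrobp did not without the larger or the smaller cTKO library (3.31 and 3.85). CD4 and regulatory T cell markers gave 1 higher call (Zbtb7b) and 0 lower among 4 tested, and Foxp3, the regulatory T cell factor gene, had 9 and 9 reads in cTKO and 13 and 20 in WT. CD8 T cell markers gave 0 higher and 1 lower (Lat) among 8 tested, and Cd3d, a CD3 chain gene, did not pass (log2 change -0.52, authors' deposited table). The calls of Zbtb7b and Lat were also lost in limma without the larger cTKO library (1.71 and -0.87) or the smaller (2.81 and -1.57), and that of Zbtb7b without either WT library (2.24 and 2.28).

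**Figure D4:**
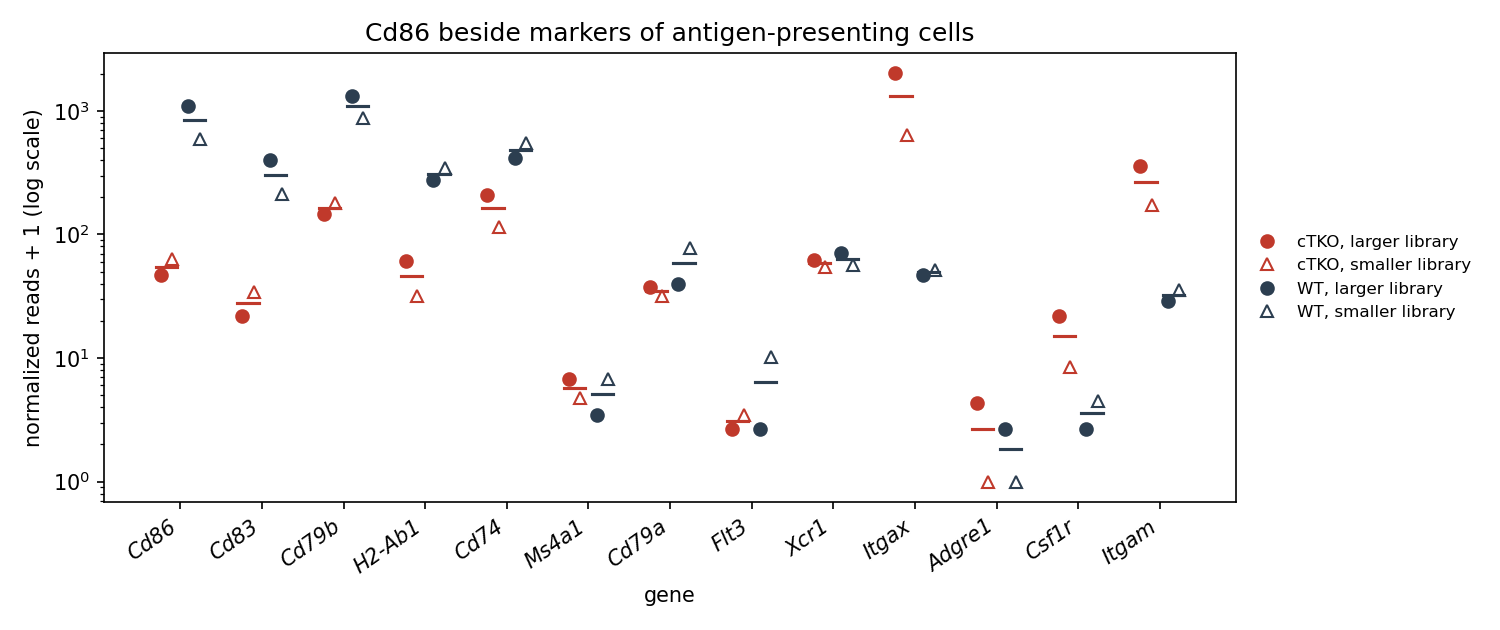
Normalized reads plus 1 (log axis) of Cd86, Cd83 and markers of B cells, dendritic cells and macrophages in the larger (filled circles) and smaller (open triangles) library of each genotype, cTKO left of WT, with bars at the mean. Cd86, Cd83, Cd79b, H2-Ab1, Cd74 and, by less, Cd79a are lower in both cTKO libraries, and Ms4a1, Flt3 and Adgre1 are near 0 in all 4. Itgax, Itgam and, with few reads, Csf1r are higher in both cTKO libraries.

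The genes whose reads ran most like those of Cd86 over the 4 libraries were looked for among 5321 genes with a mean of at least 100 and recovered reads. The measure was the distance between log2(normalized reads + 1), centred on each gene's mean, and its median over all of these genes was 3.96. Cd83, a surface protein of activated B cells, dendritic cells and some T cells, was nearest, at a distance of 0.503. It had 25 and 27 reads in cTKO, against 481 and 184 in WT. Mapk11, the p38 beta kinase gene, followed at 0.521, with 46 and 40 reads in cTKO, against 698 and 370 in WT. Gpr34, a lysophosphatidylserine receptor gene, came next at 0.816, with 75 and 67 reads in cTKO, against 970 and 408 in WT. In all 3 both cTKO libraries lay far below both WT libraries, and the larger WT library was the highest. Size and sex of the 4 libraries go together, so likeness over them is a description.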

How the data were processed

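Polyadenylated RNA of sorted CD8 T cells went into paired-end sequencing, per the labels. The submitters' processing notes name STAR, DESeq2, mm10 and GRCm38.p6, while roles, versions and the counting tool are not stated in the sources used here. Per the file headers, the table holds for each gene a mean normalized count, a signal the authors made from reads divided by size factors. The log2 fold change and its SE, the test score, p-value and adjusted p-value are as the authors deposited them. B cell and CD4 T cell values were not analysed here.

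A gene was called at the authors' adjusted p under 0.05. Whole reads per library were worked back as the whole numbers that return the deposited mean and, in a negative binomial fit of both genotypes whose dispersion matches the deposited SE, the deposited log2 fold change within 2e-09. Below a mean of 20 the mean alone could decide. This solved 14152 of 14173 genes with a mean under 1000 (99.9%), and 38 listed genes with means from 1000 to 12000. The procedure was tested on simulated reads of genes with means under 1000 only. For the 38 genes above that, the search took only solutions with both libraries of a genotype within a set fold of each other. That search was not tested on simulated reads. The alternative test was limma-trend (limma 3.58.1, R 4.3.3) on log2(normalized reads + 0.5) of 7801 genes averaging 10 or more, with Benjamini-Hochberg adjustment over all of them; it called 983 genes.

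Alternatives were other filters, thresholds, a re-centring, another pseudocount, the larger and smaller library as a block, and leaving out each library. Positions and exon lengths are from GENCODE M21 on GRCm38. All calls rest on 2 animals per genotype. The genes of the set and all lists were chosen with earlier results of these data known. Named in the text are all 8 genes of the set, from each pathway list up to 6 called genes and the gene with the highest mean, from each marker list up to 4 called genes and its first 3 genes, and the 3 genes nearest to a called gene of the set. Other genes, such as Ctla4, Pdcd1, Ifngr1, Irf1, Il2, Cd22 and the remaining markers, were named after their values were seen. A gene of a pathway list and one of a marker list are not reported here, and the counts of those lists leave them out.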

Additional observations from a re-analysis of the deposited data

How the results depend on the processing

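The call of Cd86 was the same in every setting with all 4 libraries. With 1 library left out it was lost without either cTKO library, so 0 to 1 genes of the set were called. There limma takes the lone cTKO library to vary like the WT libraries. Most calls over all tested genes were lost there as well. Of the 61 tested pathway genes 8 were called, and 4 at an adjusted p under 0.01. Limma called 6 of 54 with all 4 libraries, 4 of 58 with no filter on the mean, and of the 54 it called 0 to 4 with 1 library left out (3 without the larger WT library). Of 39 tested markers 16 were called. Limma called 13 of 26 with all 4 libraries and 2 to 12 of these 26 with 1 left out (10 without the smaller WT library). Limma called 12.6% of the 7801 genes it tested with all 4 libraries, and 6.35% of 14190 with no filter on the mean. With any 1 library left out, the share called of the 7801 genes fell too, most without a cTKO library. Fewer calls in the lists under these settings are thus not particular to the lists. The 7801 genes leave out nearly all genes with a mean of 1000 or more, of which 38 of 3980 had recovered reads. Directions turned for Icos (-0.035 without the smaller cTKO library), Icosl (-0.069 without the larger cTKO and -0.15 without the smaller WT library), Nfatc1 (-0.0034 without the larger cTKO library), Zbtb46 (-1.07 without the larger cTKO and -0.45 without the smaller WT library), Xcr1 (0.046 without the larger WT library) and Lyz2 (-0.91 without the larger cTKO and -0.0018 without the smaller WT library), none of which passed in any setting. The cause was not tested. Of 444 values for single genes over these settings, 372 kept their direction and side of the threshold, 63 lost the call and 0 gained one. The larger and smaller library as a block changed no call among the 33 named genes it covers (Cd86, adjusted p 1.21e-06).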

Other observations

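Genes that flank the set on the chromosomes, 2 on each side in RefSeq on GRCm38.p6, were listed after the values of the set were known. Of 25 such genes that are not in the set, 16 were tested in the authors' deposited table. Among these, 4 were higher and 1 was lower, beside 9.77% higher and 3.61% lower of all tested genes. The lower one was Ildr1, a receptor-like gene of cell junctions that lies 27.8 kb from Cd86. It had 72 and 39 reads in cTKO, against 365 and 194 in WT (log2 change -2.28 ± 0.45 SE at an adjusted p of 1.37e-05, authors' deposited table). In limma Ildr1 did not pass without the larger or the smaller cTKO library (-2.41 and -2.11, adjusted p 0.140 and 0.0796). Slc15a2, an oligopeptide transporter gene 84.0 kb from Cd86, had 67 and 332 reads in cTKO, against 212 and 0 in WT, so each genotype held both low and high libraries. On the other side of Cd86, Casr had 3 and 0 reads in cTKO and 0 and 0 in WT.

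The 4 higher ones flanked genes of the set that did not pass or had no reads, at gaps from 27.2 to 1703 kb. Nptn, an adhesion molecule gene 27.2 kb from Cd276, rose by 1.73 in log2 units (adjusted p 4.89e-07, authors' deposited table), while Cd276 had 0 reads. Pard3b, a cell polarity gene, and Nrp2, a semaphorin receptor gene, follow Icos along chromosome 1, at gaps of 638 and 1703 kb. Pard3b had 154 and 59 reads in cTKO, against 0 and 0 in WT. Nrp2 had 1315 and 226 reads in cTKO, against 97 and 132 in WT (log2 change 2.57 at an adjusted p of 6.07e-05, authors' deposited table). Raph1, 179 kb before Cd28, had 108 and 36 reads in cTKO, against 23 and 3 in WT (log2 change 2.55 at an adjusted p of 0.0250, authors' deposited table). In limma without the larger cTKO library, Nrp2 was at 1.34 and Raph1 at 2.37 and neither passed (adjusted p 0.349 and 0.414). Nrp2 also did not pass without the smaller cTKO (3.30) or the larger WT library (1.86). Raph1 did not pass with all 4 libraries either (2.86, adjusted p 0.0531), and passed only without the larger WT library (4.01).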
